A study of Mus musculus with 20 samples.

Results

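Interferon-stimulated genes are the genes that cells switch on after they sense interferon, and 35 of them were followed here in thymic group 2 innate lymphoid cells (ILC2), lymphocytes that make type 2 cytokines. Type I and type III interferons act through receptors that signal over the kinases JAK1 and TYK2 to a complex that contains STAT2 and IRF9 and binds interferon-stimulated response elements (ISRE) in promoters. Interferon gamma acts through gamma-activated sites (GAS) and is the stronger inducer of the guanylate-binding and immunity-related GTPases. The products block viral entry, translation and replication, tag proteins, sense nucleic acids, recruit lymphocytes and, through USP18, shut the pathway off again. The genes were taken as the rows of the deposited tables that carry the symbols of a named list. The treatment table, of 9973 genes, held 31 of them, without Oas1a, Ifi44, Xaf1 and Ifih1, and the knockout table, of 10706 genes, held all 35.

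The treatment experiment used wild-type (WT) female mice in 4 groups of 3 libraries. One group received both sublethal irradiation of 425 rad and an injection of 0.3 µg recombinant IL-25 (rIL-25) into the thymus, one irradiation alone, one the rIL-25 injection alone, and one was untreated. Treated mice were studied after 3 days. IL-25 is an epithelial cytokine that ILC2 detect through a receptor containing IL-17RB. No group was injected without rIL-25, so rIL-25 and the injection cannot be told apart. The knockout experiment compared irradiated male Il25 KO mice with irradiated male Il25 WT mice, 4 libraries each, at the same dose and day. Both of its groups were irradiated, and it had no untreated group. The mice are called young and age-matched, with no strain, allele or sorting gate given, and the labels do not say that replicates were separate animals, so p-values measure the spread between these samples only. Libraries were made by MARS-seq, which counts tags at the 3′ ends of messenger RNAs. In such bulk libraries, fewer cells of a type and less RNA per cell cannot be told apart.

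The promoters show what the list shares in sequence, and those printed here belong to genes the results turn on or to textbook targets of the pathway. In the RefSeq promoter windows of mouse build GRCm38.p6, which run from 250 bases before to 50 bases after a gene's start, 26 of the 35 genes had an entry by symbol. Mx1, Usp18, Ifi27l2a, Rtp4, Zbp1, Iigp1, Ly6e, Dhx58 and Parp14 were not matched. The ISRE core, searched on both strands as GAAA, any 2 bases and GAAA again, was in the window of 16 of the 26 genes (61.5%), against 1079 of all 27025 symbols (3.99%). Counted by window, it was in 17 of 31 windows of the listed genes (54.8%), against 1131 of all 32851 windows (3.44%). The GAS motif, searched as TTCNNNGAA, which reads the same on both strands, was in 5 of the 26 genes (19.2%), against 2582 of all symbols (9.55%). A match is a description of letters and not a bound site. The stretches below lie wholly before the gene start and are printed 5′ to 3′ on the strand of the gene, with matches to the ISRE core in capitals. The first gene, Cxcl10, encodes a chemokine that attracts T cells and NK cells through CXCR3, and its stretch lies at chr5:92349023-92349122 on the minus strand. That of Trim30a, a tripartite motif protein that dampens Toll-like receptor signalling, lies at chr7:104465194-104465293 on the minus strand. Isg15 encodes a ubiquitin-like modifier (chr4:156200819-156200918, minus strand), Igtp an immunity-related GTPase (chr11:58199456-58199555, plus strand) and Ifit1 a binder of foreign messenger RNA caps (chr19:34640765-34640864, plus strand). The capitals of Isg15 hold 3 matches that overlap each other, those of Ifit1 are 2 separate matches, and Cxcl10, Trim30a and Igtp have 1 each, with the matches of Ifit1 and Trim30a on the other strand. Trim30a has a second start in the table, whose window holds its 1 match after the start.
Cxcl10: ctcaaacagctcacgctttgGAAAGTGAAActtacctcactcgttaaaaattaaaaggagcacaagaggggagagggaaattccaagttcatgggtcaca
Trim30a: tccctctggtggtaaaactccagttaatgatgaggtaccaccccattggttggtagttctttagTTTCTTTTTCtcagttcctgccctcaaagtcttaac
Isg15: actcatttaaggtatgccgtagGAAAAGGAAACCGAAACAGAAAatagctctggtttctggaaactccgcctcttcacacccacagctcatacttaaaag
Igtp: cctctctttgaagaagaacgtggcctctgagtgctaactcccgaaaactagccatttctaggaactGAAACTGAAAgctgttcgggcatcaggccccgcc
Ifit1: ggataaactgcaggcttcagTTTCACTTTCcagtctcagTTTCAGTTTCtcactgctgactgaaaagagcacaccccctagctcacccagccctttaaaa

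Total counts ran from 495079 to 1460702 in the treatment libraries and from 2093288 to 4420831 in the knockout libraries. A count of 3 in 1 library corresponded to 2.05 to 6.06 CPM (counts scaled to a common library total) in the treatment experiment and to 0.679 to 1.43 CPM in the knockout experiment, before scaling. After a filter on low counts, 24 of the 31 genes could be tested among 7482 in the treatment table, and 31 of the 35 among 8812 in the knockout table. Il25 itself had 0 counts in all 4 KO libraries, against 3, 7, 17 and 10 counts in the WT libraries. The ILC2 markers summed to 3607 to 4561 CPM in irradiated + rIL-25, 3708 to 5021 CPM in irradiated, 2395 to 2764 CPM in rIL-25 and 2086 to 2658 CPM in untreated libraries. Of the 13 ILC2 markers measured, 0 were at 0 in the irradiated + rIL-25 libraries, 1 to 2 in irradiated, 0 to 5 in rIL-25 and 1 to 5 in untreated libraries. Areg was at 0 in all 3 irradiated, 2 rIL-25 and 2 untreated libraries, Il1rl1 in 2 rIL-25 and 2 untreated libraries, and Il5, Arg1, Klrg1 and Il13 each in at least 1 library. T cell and thymocyte markers, of which 12 were measured, summed to 3673 to 5458 CPM over the 12 libraries. Plasmacytoid dendritic cells are the main producers of type I interferon. Their markers, of which 6 were measured without Siglech, Klk1, Tlr7 and Tlr9, summed to 253 to 506 CPM in irradiated + rIL-25, 225 to 318 CPM in irradiated, 721 to 867 CPM in rIL-25 and 662 to 1057 CPM in untreated libraries. These markers did not all fall together. Irf8, a gene of this list, was at 16.7 ± 10.6 CPM in irradiated + rIL-25, against 5.06 ± 1.17 CPM in rIL-25 libraries (SD, n = 3 each). Its log2 change was 1.80 (edgeR adjusted p = 0.0205). The 4 NK cell and ILC1 markers measured summed to 728 to 1050.2 CPM in irradiated + rIL-25, 1032 to 1339 CPM in irradiated, 524 to 681 CPM in rIL-25 and 544 to 667 CPM in untreated libraries, with Gzmb and Il2rb at 0 in several rIL-25 and untreated libraries. The 2 mast cell, basophil and eosinophil markers measured, Cpa3 and Siglecf, summed to 4.30 to 63.7 CPM in irradiated + rIL-25, 33.4 to 63.3 CPM in irradiated, 271 to 409.7 CPM in rIL-25 and 252 to 361 CPM in untreated libraries, with Siglecf at 0 in 1 library of each irradiated group. As sums, the lists of ILC2, plasmacytoid dendritic cells, NK cells and ILC1, and mast cells, basophils and eosinophils each separated the irradiated groups from the other 2. The part of all these cell types in the results below was not tested.

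Cxcl10 had the largest change of the tested genes on the list in irradiated + rIL-25 libraries. Only those libraries brought it past the filter on low counts, so it was tested through the group where it was high. Its p-values in the treatment comparisons carry that limit. Without the filter, edgeR called it in the same treatment comparisons. It had 16.9, 31.9 and 39.4 CPM in irradiated + rIL-25 libraries, 1.62, 13.7 and 2.23 CPM in irradiated libraries, 0, 1.35 and 1.27 CPM in rIL-25 libraries, and 0, 1.405 and 2.42 CPM in untreated libraries. All irradiated + rIL-25 libraries lay above all others, while irradiated replicate 2 stood above the remaining libraries, which held at most 3 counts over a whole group for the rIL-25 and the untreated groups. The gene lies on chromosome 5 at 92346638 to 92348889 on the minus strand (mm10, GENCODE M21) and is overlapped on the other strand by Art3. Whether counting used the strand is not given in the sources used here.

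Ifi27l2a encodes a small membrane protein strongly induced by interferon, on chromosome 12 at 103442167 to 103443680, minus strand. It had 122, 116 and 161 CPM in irradiated + rIL-25 libraries, 79.5, 86.1 and 156 CPM in irradiated libraries, 29.98, 36.5 and 91.5 CPM in rIL-25 libraries, and 41.02, 26.7 and 19.4 CPM in untreated libraries. Both irradiated groups lay above the untreated group without overlap. Among the rIL-25 libraries, replicate 3 was as high as the lower irradiated ones and the other two lay within the untreated range.

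**Figure D1:**
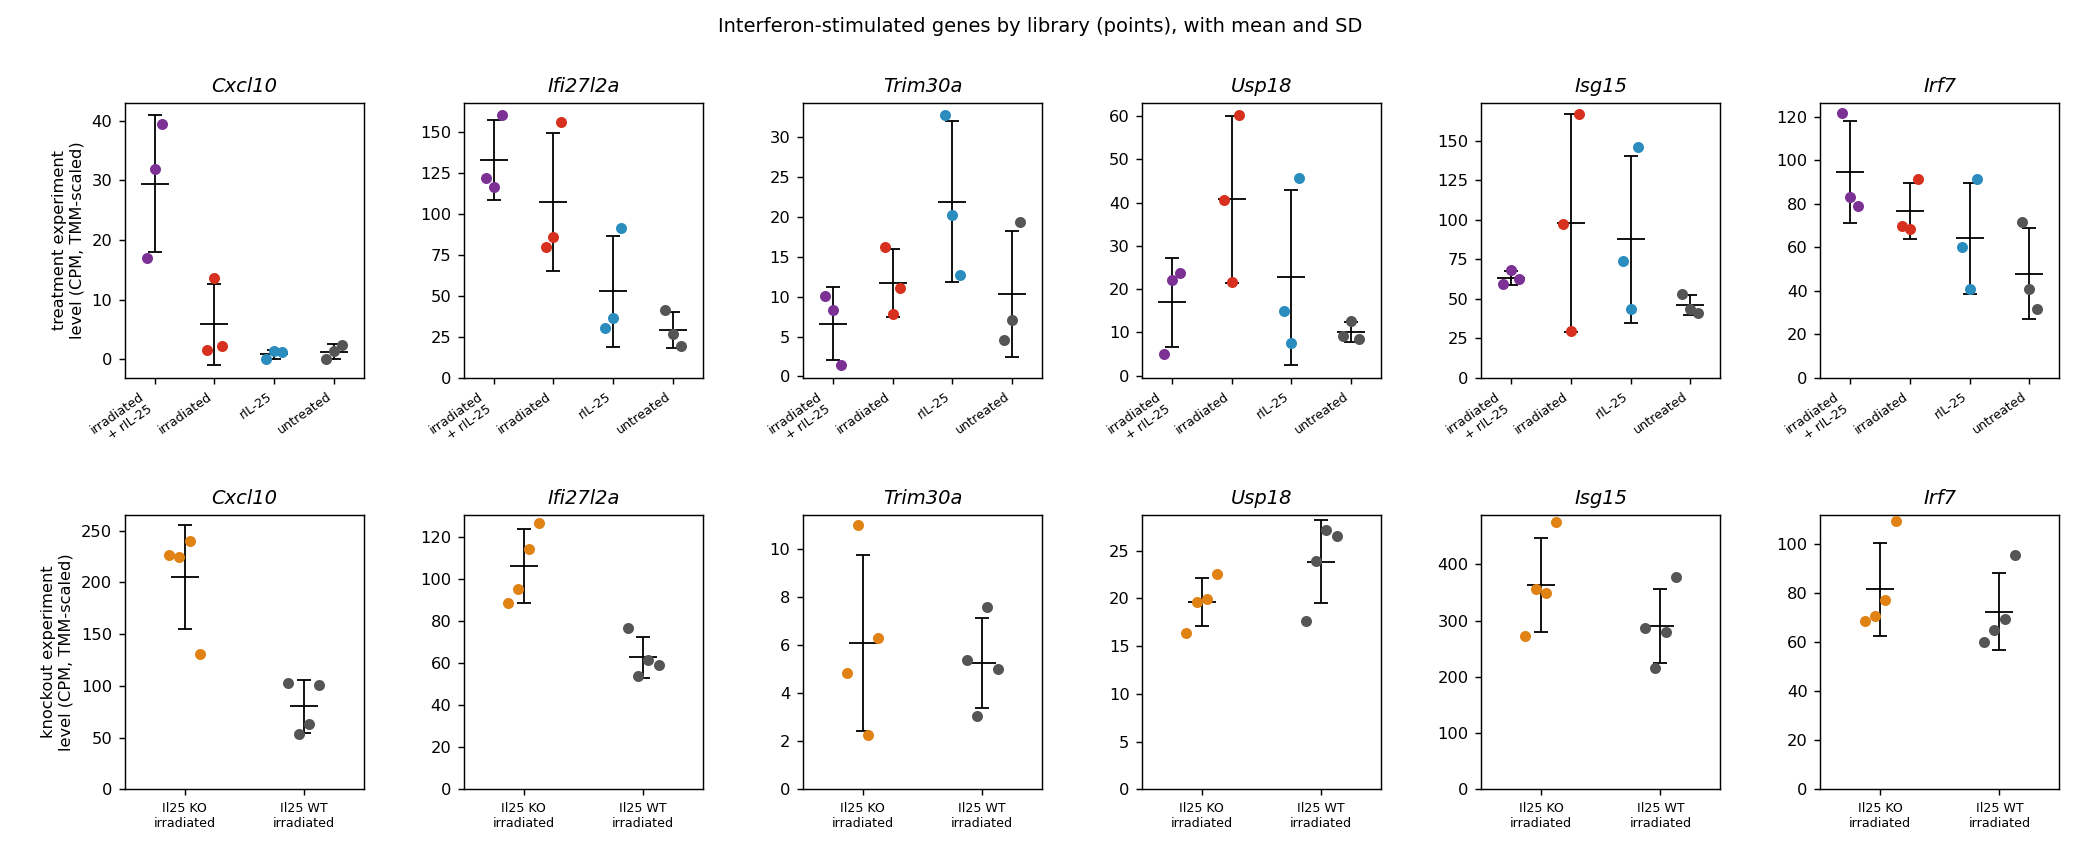
Level of 6 interferon-stimulated genes in every library, in CPM after TMM scaling (y axis, linear), by group (x axis), for the treatment experiment (top, n = 3 per group) and the knockout experiment (bottom, n = 4 per group). Points are libraries, and bars give the mean and SD. Cxcl10 lies between 16.9 and 39.4 CPM in irradiated + rIL-25 libraries, above all other treatment libraries, and between 131 and 240 CPM in Il25 KO libraries, above all Il25 WT libraries.

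Isg15, the ubiquitin-like modifier, and Usp18, the protease that removes it and blocks the interferon receptor, shared their high libraries. Isg15 had 59.1, 67.9 and 62.4 CPM in irradiated + rIL-25 libraries, 97.3, 29.4 and 167 CPM in irradiated libraries, 73.6, 43.3 and 146 CPM in rIL-25 libraries, and 53.2, 43.6 and 41.1 CPM in untreated libraries. Usp18 had 5.07, 22.2 and 23.7 CPM in irradiated + rIL-25 libraries, 40.5, 21.5 and 60.2 CPM in irradiated libraries, 14.99, 7.44 and 45.8 CPM in rIL-25 libraries, and 9.12, 12.6 and 8.47 CPM in untreated libraries. For both genes irradiated replicate 3 and rIL-25 replicate 3 were the highest of the 12 libraries. The irradiated + rIL-25 libraries stayed within 59.1 to 67.9 CPM for Isg15, above the untreated group. Those of Usp18 overlapped the untreated group.

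Among the signalling factors, Irf7, the factor that amplifies type I interferon production, had 122, 83.1 and 78.9 CPM in irradiated + rIL-25 libraries, 69.7, 68.5 and 91.4 CPM in irradiated libraries, 59.97, 40.6 and 91.5 CPM in rIL-25 libraries, and 71.4, 40.7 and 31.5 CPM in untreated libraries. The irradiated + rIL-25 libraries all lay above the untreated ones, and the other groups overlapped them. Irf9, the DNA-binding part of the complex with STAT2, had 130.1, 109 and 90.3 CPM in irradiated + rIL-25 libraries, 120.0, 60.7 and 111 CPM in irradiated libraries, 80.4, 76.4 and 112 CPM in rIL-25 libraries, and 135, 96.9 and 84.7 CPM in untreated libraries. All 4 groups overlapped. Stat2, its partner in that complex, had 42.2, 38.8 and 40.1 CPM in irradiated + rIL-25 libraries, 34.1, 27.4 and 57.96 CPM in irradiated libraries, 43.6, 44.6 and 53.4 CPM in rIL-25 libraries, and 44.1, 67.4 and 42.3 CPM in untreated libraries. The irradiated + rIL-25 libraries all lay just below the lowest untreated library. Irf9 is overlapped on the same strand by Rnf31.

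Of the OAS family, whose synthetases make the 2-5A messenger of RNA decay, Oas3 had 25.3, 26.3 and 21.5 CPM in irradiated + rIL-25 libraries, 24.3, 31.3 and 42.4 CPM in irradiated libraries, 13.6, 9.46 and 26.7 CPM in rIL-25 libraries, and 19.8, 5.62 and 9.68 CPM in untreated libraries. Each irradiated + rIL-25 and each irradiated library was above each untreated library. Oasl1, a relative without 2-5A synthesis that limits Irf7 translation in mice, ran from 0 to 25.3 CPM, with its only 0 in irradiated + rIL-25 replicate 2. Oasl2, at 3.38 to 25.4 CPM, had too few counts to be tested.

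The IFIT proteins, which bind foreign RNA, had few counts. Ifit2 ran from 4.09 to 24.2 CPM and was tested, while Ifit1, at 3.24 to 30.5 CPM, and Ifit3, at 0 to 8.11 CPM, were not. Of the sensors, Zbp1, which detects Z-form nucleic acids, had 45.6, 34.6 and 34.4 CPM in irradiated + rIL-25 libraries, 27.6, 23.5 and 62.4 CPM in irradiated libraries, 12.3, 14.9 and 26.7 CPM in rIL-25 libraries, and 16.7, 12.6 and 19.4 CPM in untreated libraries. Its irradiated + rIL-25 and irradiated libraries lay above all untreated ones. Dhx58, a regulator of RIG-I-like receptors, ran from 8.45 to 29.2 CPM with all groups overlapping.

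Among the antiviral effectors, Ly6e, a surface protein that restricts entry of coronaviruses, had 3658, 3581 and 3068 CPM in irradiated + rIL-25 libraries, 3028, 3663 and 2666 CPM in irradiated libraries, 3136, 4350.5 and 2825 CPM in rIL-25 libraries, and 3779.9, 3216 and 3653 CPM in untreated libraries. No group stood apart. Bst2, tetherin, which holds budding virions at the membrane, had 331, 324 and 247 CPM in irradiated + rIL-25 libraries, 237, 251 and 241 CPM in irradiated libraries, 172, 239 and 250.5 CPM in rIL-25 libraries, and 307, 201 and 250.5 CPM in untreated libraries, and its groups overlapped as well. Sp100, a nuclear body protein, had 42.2, 8.31 and 12.2 CPM in irradiated + rIL-25 libraries, 6.49, 17.6 and 17.8 CPM in irradiated libraries, 4.09, 13.5 and 7.63 CPM in rIL-25 libraries, and 4.56, 7.02 and 3.63 CPM in untreated libraries. Its irradiated + rIL-25 libraries lay above the untreated ones, but replicate 1 was far above the other two. Trim30a, on chromosome 7 at 104409025 to 104465193 on the minus strand, had 10.1, 8.31 and 1.43 CPM in irradiated + rIL-25 libraries, 16.2, 7.83 and 11.1 CPM in irradiated libraries, 32.7, 20.3 and 12.7 CPM in rIL-25 libraries, and 4.56, 7.02 and 19.4 CPM in untreated libraries. Its irradiated + rIL-25 libraries lay below all rIL-25 libraries, and the untreated libraries spread over both ranges. Trim30a has close relatives next to it, such as Trim30d, so reads may be split between them, and the same holds for the IFIT, OAS and guanylate-binding families. Parp14, which transfers ADP-ribose, and Rtp4, a receptor transporter that also binds RNA, ran from 32.1 to 72.2 and from 33.7 to 95.9 CPM. Mx1, Rsad2 and Cmpk2, which act on viral replication and nucleotides, reached at most 11.2, 15.6 and 11.4 CPM and were not tested.

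The interferon-inducible GTPases attack the vacuoles of intracellular pathogens. Igtp had 76.03, 112 and 115 CPM in irradiated + rIL-25 libraries, 55.1, 70.5 and 80.3 CPM in irradiated libraries, 91.3, 48.00 and 78.8 CPM in rIL-25 libraries, and 41.02, 77.3 and 59.3 CPM in untreated libraries. The irradiated + rIL-25 libraries were at the upper end, with replicate 1 inside the range of the untreated group. Its locus is overlapped on the same strand by Irgm2. Ifi47 had 70.96, 52.6 and 45.9 CPM in irradiated + rIL-25 libraries, 77.9, 52.9 and 75.8 CPM in irradiated libraries, 62.7, 86.5 and 87.7 CPM in rIL-25 libraries, and 79.00, 94.1 and 93.2 CPM in untreated libraries. All libraries of both irradiated groups were below the lowest untreated library. Gbp2, Gbp3, Gbp7 and Irgm1 ran from 10.04 to 29.2, 9.83 to 40.5, 18.6 to 43.1 and 25.9 to 61.3 CPM, and Iigp1, at 0.717 to 31.2 CPM, was not tested.

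**Figure D2:**
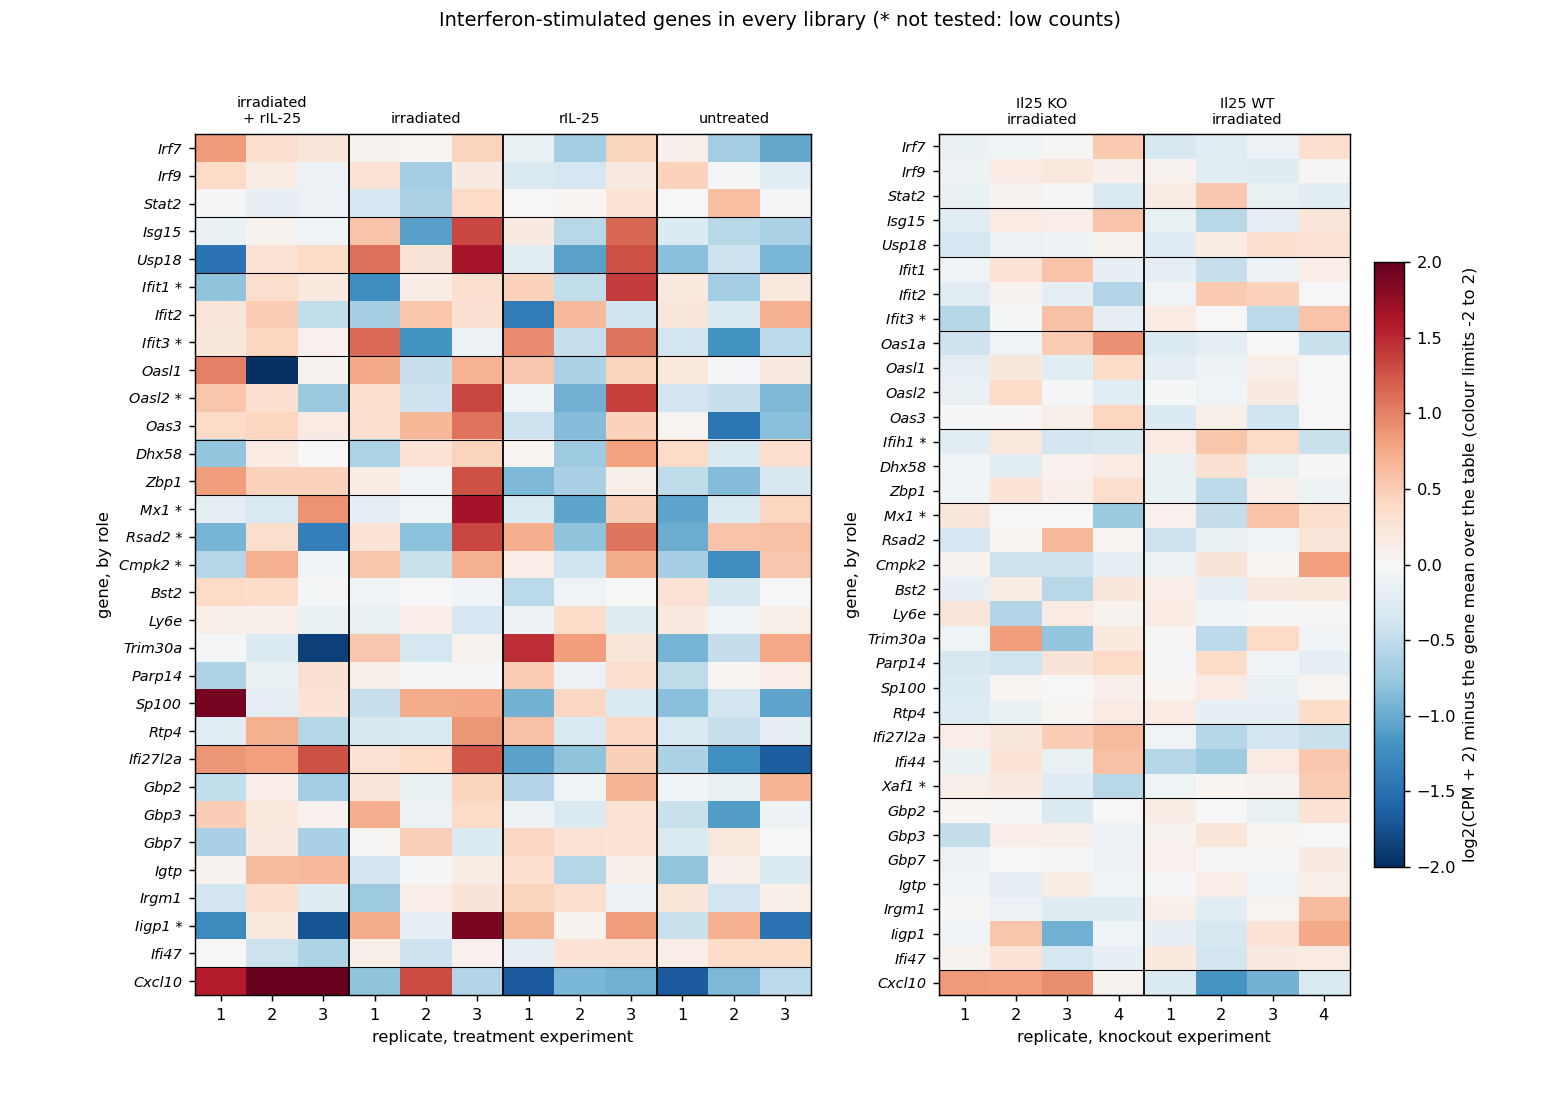
Every measured interferon-stimulated gene (rows, grouped by role) in every library (columns, by group and replicate) of the treatment experiment (left, 31 genes) and the knockout experiment (right, 35 genes). Colour is log2(CPM + 2) minus the mean of that gene over its table, limited to -2 and 2, and an asterisk marks genes with too few counts to be tested. In the treatment panel Ifi27l2a, Oas3 and Zbp1 are higher in every library of both irradiated groups than in the untreated ones, and Ifi47 is lower. Also in the treatment panel, irradiated replicate 3 and rIL-25 replicate 3 are columns in which many rows are red. In the knockout panel Cxcl10 and Ifi27l2a are higher in every KO library than in every WT library.

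Irradiation together with rIL-25 was set against no treatment first. Cxcl10 and Ifi27l2a rose, and 0 of the 24 tested fell. Cxcl10 was at 29.4 ± 11.5 CPM, against 1.27 ± 1.22 CPM in untreated libraries (SD, n = 3 each). Its log2 change was 4.33 ± 0.74 (SE) with an adjusted p of 0.000821 in edgeR's quasi-likelihood test with Benjamini-Hochberg adjustment. From 88 counts against 3, the ratio of counts per total was 23.1, with an exact 95% interval of 7.67 to 114 that covers counting error only. Ifi27l2a was at 133 ± 24.1 CPM, against 29.02 ± 11.02 CPM, a log2 change of 2.22 ± 0.37 (edgeR adjusted p = 0.000662). Over all genes tested 4.22% were called higher and 4.7% lower, 8.93% in all, so the 2 of 24 genes called are close to the background share. The groups did not overlap for 8 genes that were higher and 2 that were lower, where 13.5% of all genes did so in each direction. The median log2 change was 0.15 over the 24 genes and -0.0095 over all genes tested, and 14 of the 24 were above 0, beside 49.1% of all genes.

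Several others missed the threshold in that comparison. Irf7 differed by 0.98 ± 0.31 (adjusted p = 0.0523), Zbp1 by 1.20 ± 0.39 (adjusted p = 0.0567) and Sp100 by 1.92 ± 0.65 (adjusted p = 0.0671) on the log2 scale in edgeR. Igtp, at 0.78 ± 0.27 (adjusted p = 0.0748), and Ifi47, at -0.68 ± 0.24 (adjusted p = 0.0738), were GTPases with opposite signs. Irf7 passed the threshold in 8 of 19 alternatives, DESeq2 and limma voom among them, Zbp1 in 5, Igtp in 2, and Sp100 and Ifi47 in 1 each. The calls of Cxcl10 and Ifi27l2a held in each alternative that tested the gene. Cxcl10, admitted by the filter only through the irradiated + rIL-25 group, was not tested at a minimum count of 30. In the authors' deposited table, whose folds run untreated over both treatments, the same pair was called, with log2 values of -4.48 for Cxcl10 and -2.23 for Ifi27l2a.

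Irradiation alone against no treatment gave 1 call, Ifi27l2a, which was higher. Its level was 107 ± 42.4 CPM, against 29.02 ± 11.02 CPM in untreated libraries (SD, n = 3 each), a log2 change of 1.88 ± 0.38 (edgeR adjusted p = 0.00727). The call was lost without irradiated replicate 3 (adjusted p = 0.0601) and without untreated replicate 3 (adjusted p = 0.0616). Of all genes tested, 2.22% were called higher and 1.8% lower, 4.02% in all. Usp18, at 40.8 ± 19.3 CPM, against 10.1 ± 2.25 CPM, had the largest estimate, 1.99 ± 0.60 (adjusted p = 0.0631), and Oas3 differed by 1.48 ± 0.46 (adjusted p = 0.0751). Usp18 came under the threshold in 8 of the 18 alternatives that tested it, DESeq2 and limma among them. Cxcl10, with 9 counts against 3, had a ratio of 3.76 (exact 95% interval 0.938 to 21.6) and an adjusted p of 0.297. Of the 24 genes 7 had an unadjusted p under 0.05, every one of them higher, beside 10.2% of all genes higher and 8.71% lower. The groups did not overlap for 4 genes that were higher and 1 that was lower, beside 11.9% and 10.9% of all genes. The median log2 change was 0.18, against 0.015 over all genes, and 15 of the 24 were above 0, beside 51.2% of all genes. Of the 24 genes, 13 (54.2%) were highest of their group in irradiated replicate 3, beside 33.0% of all genes tested.

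With rIL-25 alone, 0 of the 24 genes and 0% of all genes were called against untreated libraries by edgeR. At an unadjusted p under 0.05, edgeR found 2 of the 24 higher, Ifi27l2a and Isg15, and 0 lower, beside 213 genes higher (2.85%) and 123 lower (1.64%) of 7482. DESeq2 and limma voom called 0 of the 24 as well. The groups did not overlap for 1 gene that was higher, Gbp7, and for 0 that were lower, beside 5.57% and 4.38% of all genes. Isg15 was at 87.7 ± 52.9 CPM, against 45.95 ± 6.37 CPM, and Usp18 at 22.7 ± 20.3 CPM, against 10.1 ± 2.25 CPM, with differences of 0.90 ± 0.42 and 1.08 ± 0.61 on the log2 scale. Replicate 3 of the rIL-25 group was the highest of its group for 13 of the 24 genes (54.2%), beside 34.1% of all genes. That library also had 2011 CPM of the 12 myeloid and conventional dendritic cell markers, none of them at 0, against 489 and 414 CPM in replicates 1 and 2, and its part in these values was not tested. The median log2 change of the 24 genes was 0.24 with all libraries, against 0.0063 over all genes, and 0.055 without rIL-25 replicate 3. Of the 24 genes 15 were above 0, beside 50.7% of all genes.

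**Figure D3:**
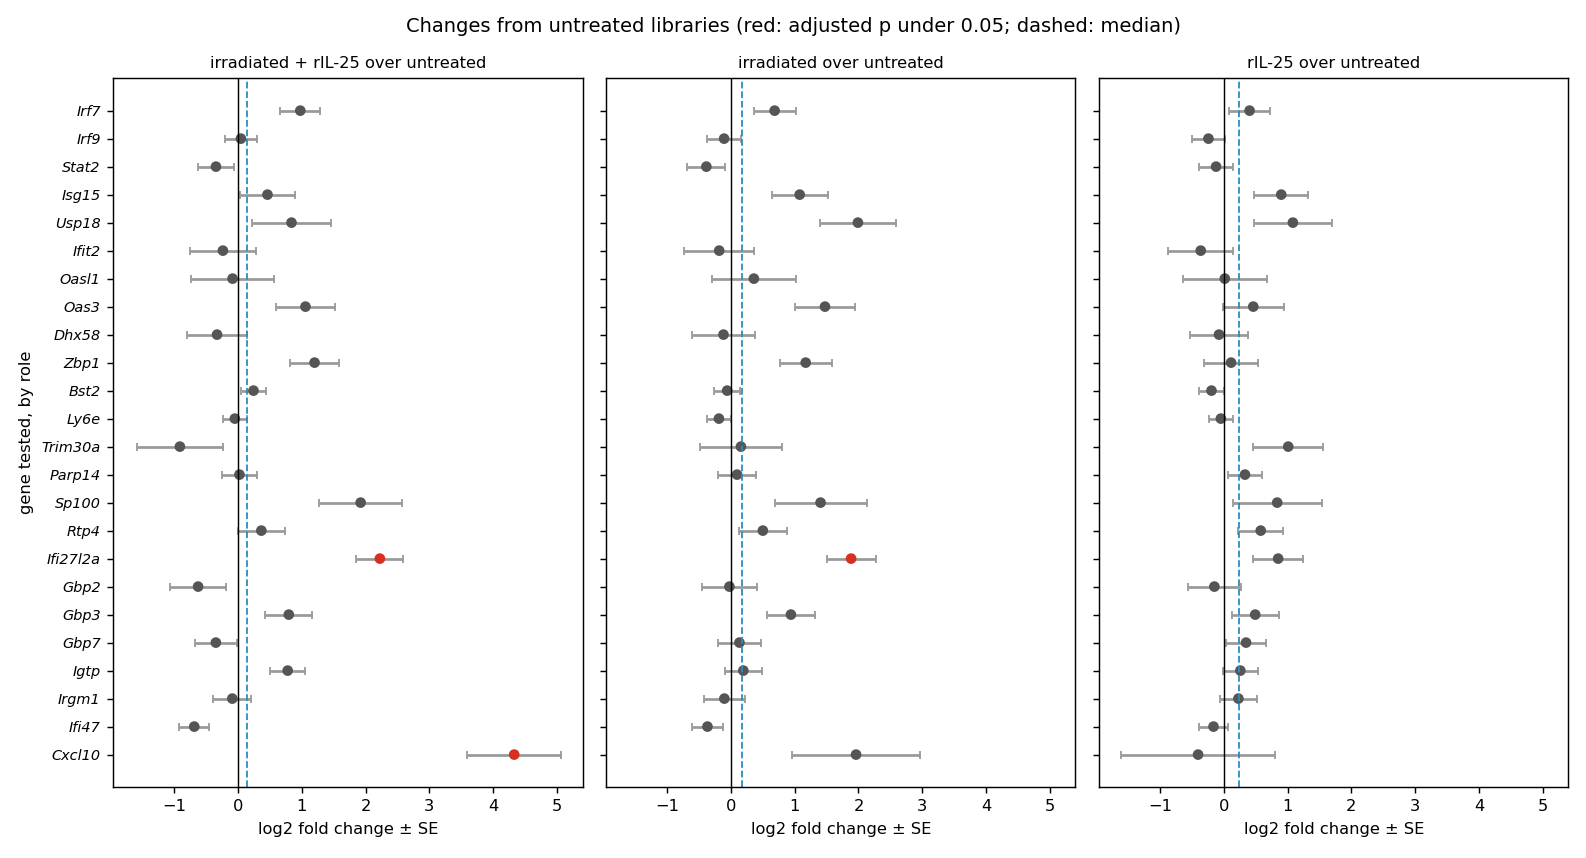
Log2 fold change ± SE (x axis) of the 24 interferon-stimulated genes tested (y axis, by role) for irradiated + rIL-25 (left), irradiated (middle) and rIL-25 libraries (right), each over the same 3 untreated libraries. Red points have an adjusted p under 0.05 in edgeR and dashed lines mark the median of the 24 genes. Cxcl10 at 4.33 and Ifi27l2a at 2.22 are the red points on the left, Ifi27l2a at 1.88 is the one in the middle, and the right panel has none.

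Adding rIL-25 to irradiation was read from irradiated + rIL-25 against irradiated libraries. Cxcl10 was the 1 gene called, at 29.4 ± 11.5 CPM, against 5.85 ± 6.81 CPM, a log2 change of 2.37 ± 0.62 (edgeR adjusted p = 0.0435). In this comparison 0.642% of all genes were called higher and 1.87% lower, 2.51% in all. The call was lost without irradiated replicate 1 (adjusted p = 0.216), irradiated replicate 3 (0.164), irradiated + rIL-25 replicate 2 (0.0630) or replicate 3 (0.240), untreated replicate 3 (0.0556), and when only these 2 groups were fitted (0.0548). The authors' deposited table, with folds of irradiation over both, gave -2.38 and an adjusted p of 0.104. Usp18 was at 16.96 ± 10.3 CPM, against 40.8 ± 19.3 CPM, a difference of -1.15 ± 0.54 (adjusted p = 0.278). Igtp differed by 0.58 ± 0.28 (adjusted p = 0.2896). At an unadjusted p under 0.05, 2 of the 24 were higher and 1 lower, beside 6.9% and 9.98% of all genes, and groups did not overlap for 1 gene, Cxcl10, which was higher, beside 9.18% of all genes higher and 10.3% lower. The median log2 change was -0.063, against -0.00021 over all genes.

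Adding irradiation to rIL-25 was read from irradiated + rIL-25 against rIL-25 libraries. This comparison had the most calls both on the list and over all genes tested. Cxcl10 and Ifi27l2a were higher and Trim30a was lower. Cxcl10 was at 29.4 ± 11.5 CPM, against 0.875 ± 0.758 CPM, with a log2 change of 4.73 ± 0.72 (edgeR adjusted p = 0.000265) and, from 88 counts against 3, a ratio of 32.3 (exact 95% interval 10.7 to 159). Ifi27l2a was at 133 ± 24.1 CPM, against 52.7 ± 33.8 CPM, 1.37 ± 0.33 on the log2 scale (adjusted p = 0.00805). Trim30a was at 6.63 ± 4.59 CPM, against 21.9 ± 10.1 CPM, -1.92 ± 0.60 on the log2 scale (adjusted p = 0.0336). It had few counts, and in irradiated + rIL-25 replicate 3 it lay below the level of 3 counts (2.21 CPM before scaling). Of all genes tested, 6.51% were called higher and 8.75% lower, 15.3% in all, so the 3 calls among the 24 genes do not exceed the background share. The Ifi27l2a call was lost without irradiated + rIL-25 replicate 3 (adjusted p = 0.0562) or rIL-25 replicate 1 (0.0558). That of Trim30a was lost without irradiated + rIL-25 replicate 3 (0.234), rIL-25 replicate 1 (0.155) or replicate 2 (0.0693). Zbp1, at 1.09 ± 0.37, stood just outside (adjusted p = 0.0515) and passed in 9 alternatives, limma voom among them. In the authors' deposited table, with folds of rIL-25 over both, Cxcl10, Ifi27l2a and Trim30a had log2 values of -4.97, -1.39 and 1.83, and 0 of them were called. That comparison of the authors' deposited table calls 51 genes in all, against 1142 here, and the reason is not given in the sources used here. The median log2 change of the 24 genes was -0.050, against -0.015 over all genes, with 11 of the 24 above 0, beside 49% of all genes. The groups did not overlap for 3 genes that were higher and 3 that were lower, beside 15.9% and 17.4% of all genes.

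The interaction asks whether the change with both treatments differed from the sum of the single changes. Of the 24 genes 0 were called by edgeR, where 2.07% of all genes were (0.361% higher and 1.71% lower), and DESeq2 and limma voom called 0 too. At an unadjusted p under 0.05, 3 genes were lower than the sum and 0 higher, beside 10.4% and 6.7% of all genes. They were Usp18, at -2.23 ± 0.81 (adjusted p = 0.162), Isg15, at -1.52 ± 0.59 (adjusted p = 0.191), and Trim30a, at -2.08 ± 0.89 (adjusted p = 0.229). Isg15 passed the threshold without irradiated replicate 2 (adjusted p = 0.0333). Of the 24 interaction values 7 were above 0, beside 49% of all genes. Cxcl10 had the largest positive value, 2.77 ± 1.53 (adjusted p = 0.378). The 5 treatment comparisons share libraries, so their values are not independent of each other.

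Summed over the 30 measured genes other than Ly6e, the level was 1229 to 1401 CPM in irradiated + rIL-25, 1061 to 1625 CPM in irradiated, 961 to 1463 CPM in rIL-25 and 947 to 1094 CPM in untreated libraries. The irradiated + rIL-25 libraries lay above the untreated ones, while the highest sums of all were irradiated replicate 3 and rIL-25 replicate 3. With Ly6e included the sums were 4298 to 5011 CPM in irradiated + rIL-25, 4222 to 4724 CPM in irradiated, 4209.9 to 5312 CPM in rIL-25 and 4163 to 4874 CPM in untreated libraries, and every pair of groups overlapped.

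**Figure D4:**
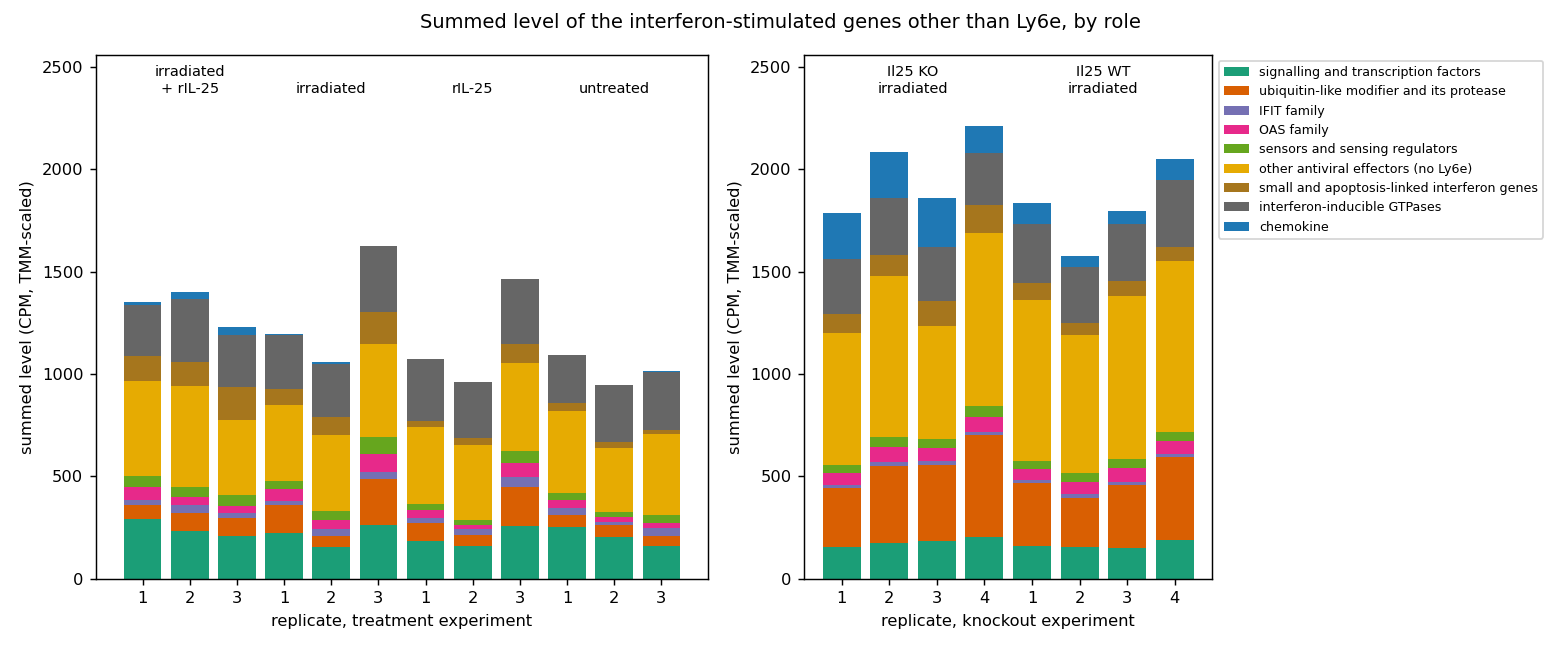
Summed level of the interferon-stimulated genes other than Ly6e, in CPM after TMM scaling (y axis, from 0), stacked by role, in every library of the treatment experiment (left) and the knockout experiment (right), by group and replicate (x axis). Irradiated replicate 3, at 1625 CPM, and rIL-25 replicate 3, at 1463 CPM, are the tallest treatment bars. In the knockout experiment the chemokine segment, Cxcl10, is thicker in each Il25 KO bar than in each Il25 WT bar.

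In irradiated mice without Il25, 2 of the 31 genes tested rose relative to irradiated Il25 WT mice, and 0 fell. They were again Cxcl10 and Ifi27l2a. Cxcl10 had 226, 224, 239.6 and 131 CPM in Il25 KO libraries, against 103, 53.6, 63.6 and 101 CPM in Il25 WT libraries. Every KO library lay above every WT library, with KO replicate 4 nearest to them. The means were 205 ± 49.9 and 80.2 ± 25.3 CPM (SD, n = 4 each), a log2 change of 1.37 ± 0.21 (edgeR adjusted p = 0.00175). Ifi27l2a had 88.5, 95.2, 114 and 127 CPM in Il25 KO libraries, against 76.7, 53.8, 61.7 and 59.04 CPM in Il25 WT libraries. Again no KO library overlapped the WT range. The means were 106 ± 17.6 and 62.8 ± 9.85 CPM, a log2 change of 0.75 ± 0.14 (edgeR adjusted p = 0.01004). Of all 8812 genes tested, 1.57% were called higher and 0.204% lower, 1.77% in all. Groups that did not overlap were found for these 2 genes, both higher, beside 4.21% of all genes higher and 2.96% lower. Both calls held in all 14 alternatives, and the authors' deposited table, with folds of WT over KO, calls the same pair. The median log2 change of the 31 genes was -0.047, against -0.0046 over all genes.

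Myeloid and conventional dendritic cell markers, which include MHC class II genes, moved with the genotype. The 10 markers measured, none of them at 0, summed to 344 to 450 CPM in Il25 KO libraries, against 253 to 306 CPM in Il25 WT libraries. NK cell and ILC1 markers summed to 728 to 1225 CPM in KO libraries, against 772 to 957 CPM in WT libraries. Monocytes, macrophages and dendritic cells are known sources of Cxcl10, and the part of these markers in the Cxcl10 result was not tested. T cell and thymocyte markers summed to 3820 to 4274 CPM in KO libraries, against 4466 to 5210 CPM in WT libraries. The groups overlapped for ILC2 markers, at 2122 to 2445 CPM in KO and 1893 to 2395 CPM in WT libraries. They overlapped as well for plasmacytoid dendritic cell markers, at 545 to 655 CPM in KO and 471 to 685 CPM in WT libraries.

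No other gene of the list passed the test in the knockout experiment. Isg15 had 273, 356, 348 and 475 CPM in Il25 KO libraries, against 288, 216, 279 and 377 CPM in Il25 WT libraries, a difference of 0.32 ± 0.17 on the log2 scale (edgeR adjusted p = 0.499). Its ranges overlapped, and replicate 4 was the highest of both groups. Usp18 had 16.4, 19.6, 19.96 and 22.6 CPM in Il25 KO libraries, against 17.7, 23.9, 27.2 and 26.6 CPM in Il25 WT libraries, again with overlap. Irf7, Irf9 and Stat2 differed by 0.16 ± 0.17, 0.19 ± 0.12 and -0.23 ± 0.21. Ly6e had 4867, 2749, 4612 and 4319.8 CPM in Il25 KO libraries, against 4579, 3920.2, 4045 and 4177 CPM in Il25 WT libraries. Its lowest value was KO replicate 2. Bst2 had 509, 634, 386 and 664 CPM in Il25 KO libraries, against 621, 510.0, 648 and 649 CPM in Il25 WT libraries, with overlapping groups.

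Cmpk2, the nucleotide kinase next to Rsad2, had 11.1, 7.33, 7.26 and 8.92 CPM in Il25 KO libraries, against 9.47, 12.9, 10.9 and 19.99 CPM in Il25 WT libraries. It and Ifit2 had an unadjusted p under 0.05 without passing the adjustment, at -0.58 ± 0.25 (adjusted p = 0.385) and -0.59 ± 0.27 (adjusted p = 0.398) in edgeR. At that unadjusted threshold 2 of the 31 genes were higher and 2 lower, beside 7.23% and 4.52% of all genes. Oas1a, a 2-5A synthetase, had 1.93, 2.997, 5.44 and 7.87 CPM in Il25 KO libraries, against 2.302, 2.66, 3.26 and 1.87 CPM in Il25 WT libraries, and its estimate of 0.68 ± 0.41 was the third largest in size (adjusted p = 0.545). Of the 31 genes 14 had estimates above 0, beside 49.1% of all genes. All 4 OAS genes tested had estimates above 0 (0.0048 to 0.68, median 0.19), the lowest of them close to no change. All 7 GTPases had estimates below 0 (-0.30 to -0.070, median -0.15), without a call in either family. Igtp, for example, had 109, 98.6, 125 and 109 CPM in Il25 KO libraries, against 111, 125, 107 and 122 CPM in Il25 WT libraries. Ifit3, Mx1, Xaf1 and Ifih1 had too few counts to be tested, at no more than 4.08, 2.99, 2.19 and 2.66 CPM.

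**Figure D5:**
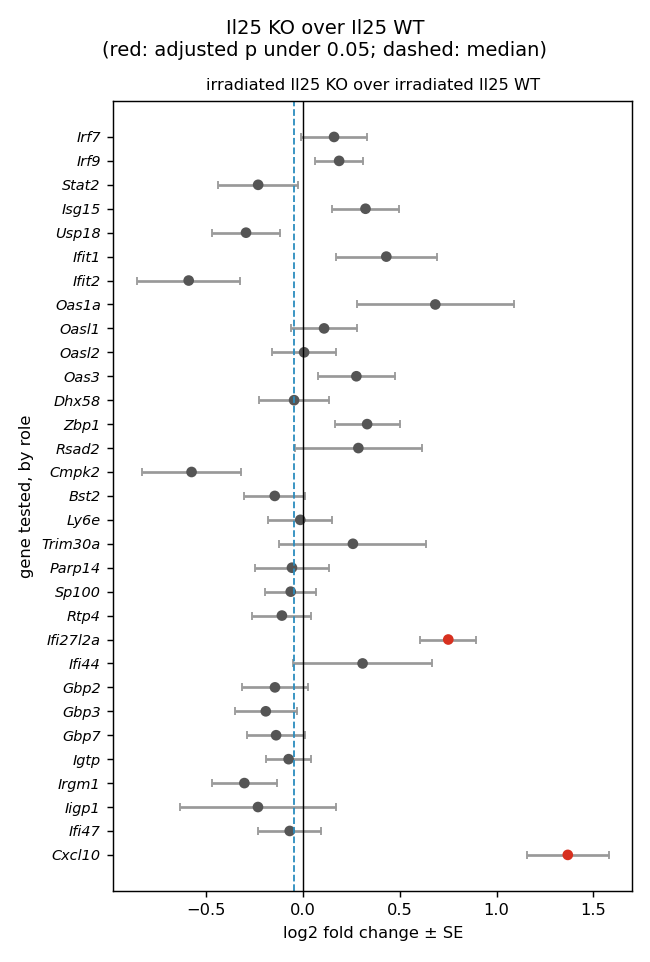
Log2 fold change ± SE (x axis) of the 31 interferon-stimulated genes tested (y axis, by role) in 4 irradiated Il25 KO over 4 irradiated Il25 WT libraries. Red points have an adjusted p under 0.05 in edgeR and the dashed line is the median. Cxcl10 at 1.37 and Ifi27l2a at 0.75 are the 2 red points, and the 7 GTPases between Gbp2 and Ifi47 all lie left of 0.

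Other genes of the pathway were taken from lists of 153 interferons, receptors and kinases, transcription factors, negative regulators, nucleic acid sensors, antigen presentation genes and further interferon-induced genes. Of the 90 tested in the treatment experiment, 12 rose and 2 fell in irradiated + rIL-25 against untreated libraries, with a median log2 change of 0.18, beside 4.22% of all genes called higher and 4.7% lower. The 2 that fell were Mb21d1, a DNA sensor gene, at -1.35, and Gbp8, at -0.63 on the log2 scale (edgeR adjusted p = 0.0379 and 0.0391). Cish, a feedback inhibitor of STAT5, was at 217 ± 22.1 CPM, against 29.8 ± 7.84 CPM (log2 2.85, edgeR adjusted p = 2.26e-05). Socs1, the inhibitor of interferon receptor kinases, was at 206 ± 25.04 CPM, against 73.9 ± 39.5 CPM (log2 1.49, adjusted p = 0.00232). Of the interferon-induced genes, Ly6a rose by 1.84, Slfn2 by 3.09, Shisa5 by 1.34 and Ifi30 by 1.64 on the log2 scale. H2-T23 and H2-D1, MHC class I genes, rose by 0.97 and 0.88. Many of these genes also answer to other cytokines.

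After irradiation alone 6 of the 90 rose and 1 fell, with a median of 0.15, beside 2.22% of all genes called higher and 1.8% lower. Ly6a was at 210 ± 70.1 CPM, against 55.0 ± 12.5 CPM in untreated libraries (log2 1.92, edgeR adjusted p = 0.000828). Cish, Slfn2, Nlrc5, Ifi30 and Ube2l6, the conjugating enzyme for Isg15, rose by 1.70, 2.46, 1.66, 1.51 and 2.47. Jak1, the kinase of interferon receptors, fell by 0.79 on the log2 scale (adjusted p = 0.0444). With rIL-25 alone 0 of the 90 were called by edgeR. Irradiated + rIL-25 libraries had 2 of the 90 higher than irradiated libraries, H2-T23 by 0.80 and Cish by 1.15, and 0 lower, beside 0.642% of all genes higher and 1.87% lower.

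Against rIL-25 libraries they had 13 higher and 5 lower, with a median of 0.12, beside 6.51% of all genes higher and 8.75% lower. The 8 with the smallest p were Cish, Socs1, Slfn2, H2-T23, Shisa5, Tap2 and H2-D1, which were higher by 2.03, 1.501, 2.14, 0.89, 1.14, 0.86 and 0.86, and the DNA sensor gene Mb21d1, which encodes cGAS and fell by 1.94. Of the 7 called among the further interferon-induced genes, 3 were higher and 4 lower. The 4 lower ones, named after their values were seen, were the guanylate-binding protein genes Gbp4, at -1.42, and Gbp8, at -0.60, and Ifitm1, at -1.34, and Ifitm2, at -1.17, on the log2 scale. The interaction had 0 calls among the 90 in edgeR.

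In the knockout experiment 6 of 105 pathway genes tested rose in Il25 KO libraries and 0 fell, with a median of 0.041, beside 1.57% of all genes higher and 0.204% lower. Ifitm1, Ifitm2 and Ifitm3, membrane proteins that block viral fusion, were among them. Ifitm1 was at 113 ± 21.1 CPM, against 49.3 ± 9.78 CPM in Il25 WT libraries (log2 1.20, edgeR adjusted p = 0.000577). Ifitm2 was at 419 ± 53.5 CPM, against 238 ± 46.7 CPM, and Ifitm3 at 128 ± 19.5 CPM, against 71.5 ± 16.4 CPM. Cish, Samhd1, which degrades nucleotides, and Slfn2 were higher by 0.67, 1.29 and 0.80 on the log2 scale.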

How the data were processed

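Sorted thymic ILC2 were profiled by MARS-seq in 12 treatment and 8 knockout libraries. The deposited files are one table for each experiment, and they give unnormalized counts for every gene as the authors obtained them. Per the submitters' processing notes, bcl2fastq, cutadapt, STAR 2.5.2b, HTSeq and DESeq2 were used with build mm10, and settings, strand and annotation release are not given in the sources used here. The knockout counts are named as molecular identifier counts, and the labels do not say this of the treatment counts. The log2 fold changes and adjusted p-values of the authors' deposited tables were read for comparison only, and their folds have the first group of the column name on top. Dates stand in place of 16 gene symbols in the treatment experiment, and those genes stayed in library sizes and fits.

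The count test was run with edgeR 4.0.16 under R 4.3.3 (filterByExpr by group with a minimum count of 10, TMM scaling, quasi-likelihood F-test), with 1 fit over the 12 treatment libraries and 1 over the 8 knockout libraries. P-values were adjusted by Benjamini-Hochberg over all genes tested, with 0.05 as the threshold of a call. A level is a CPM value after TMM scaling. Levels were ranked to choose genes and summed over lists, and were not tested between genes. The SE is the fold change over the square root of F. Where a group held at most 3 counts, the ratio of counts per total has an exact 95% interval. Intervals and floors of 3 counts cover counting error only. The procedure was tested on simulated data. Alternatives were RLE size factors, no filter, a minimum count of 30, a replicate block, a fit of only the groups compared, DESeq2 1.42.0, voom of limma 3.58.1 with sample quality weights, and fits that drop a single library.

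The members and lists were chosen with earlier results of these data known. Genes given in every library were those called in any comparison, the 5 with the highest mean CPM in each table, and those with the 3 smallest p or the 3 largest changes in a comparison, while Zbp1, Ifi47, Stat2 and the knockout values of Usp18 were added after they were seen. Pathway genes called were named, at most 8 per comparison by smallest p, with further ones added after their values were seen. Promoter windows came from RefSeq (GRCm38.p6) and positions from GENCODE M21, both of the build named for the files.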

Additional observations from a re-analysis of the deposited data

Results flagged for a closer look

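In 70 groups of 4 libraries, 1 per gene and genotype of the knockout experiment, the gap of the highest or lowest library to its neighbour, as a share of the group's range, was set against Dixon's 95% critical value. About 1 group in 20 passes by chance, and 2 passed here. Cxcl10 in Il25 KO replicate 4, at 131 CPM beside 226, 224 and 240 CPM in the other KO libraries, was low with a gap of 0.86 of the range, though still above the 4 Il25 WT libraries (53.6 to 103 CPM). Ifi47 in Il25 WT replicate 2, at 42.3 CPM beside 63.7, 62.5 and 61.85 CPM, was low with a gap of 0.913 of the range. The cause of neither was tested.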

How the results depend on the processing

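No result changed direction past the threshold under any alternative run. Counts of members below mostly stand without the share of all genes called in the same run, so they describe those calls only. Without the filter on low counts, the median log2 change of the members was 0.37 after irradiation and -0.44 for the interaction. At a minimum count of 30, which removes Cxcl10 and leaves 12 members, it was -0.054 after irradiation, 0.12 for irradiated + rIL-25 over irradiated and -0.10 for the interaction, and 1, 0 and 1 members were called in irradiated + rIL-25 libraries against untreated, irradiated and rIL-25 ones. DESeq2 called 2 members after irradiation and 0 against irradiated libraries, where it gave Cxcl10 no adjusted p. limma voom called 541 genes and 2 members after irradiation, 4 members with both treatments against untreated libraries, and 417 genes for the interaction. Fitting only the 2 groups compared gave 2 members after irradiation, and 125 genes and 0 members in irradiated + rIL-25 against irradiated libraries. With the replicate number as a block, 2 members were called after irradiation, with Usp18 added, and 4 with both treatments against untreated libraries, with Irf7 and Zbp1 added. The labels give the numbers no meaning, and 4 of 18 same-number correlations in the treatment experiment and 1 of 4 in the knockout experiment were above 0.1, so the block was not used. Among correlations of different number, 4 of 36 and 3 of 12 were above 0.1. Between irradiated and rIL-25 libraries, all 3 same-number correlations were above 0.1 (0.122, 0.375 and 0.198), and the 6 of different number ran from -0.243 to 0.071. For this pair of groups that is a hint of shared numbers from the data and not from the design. Between rIL-25 and untreated libraries the 3 same-number correlations were below 0 (-0.103, -0.189 and -0.0842). Whether numbers were shared was not tested.

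Leaving out each library in turn gave 86 to 370 genes, 0 to 3 members and a median of 0.087 to 0.38 after irradiation (fewest genes without untreated replicate 3), and 0 to 3 genes and a median of 0.055 to 0.38 after rIL-25. Irradiated + rIL-25 libraries had 271 to 896 genes and 2 to 4 members against untreated libraries, 42 to 358 genes and 0 to 1 members against irradiated libraries, and 460 to 1318 genes, 1 to 4 members and a median of -0.24 to 0.22 against rIL-25 libraries, each with the fewest genes without irradiated + rIL-25 replicate 3. The interaction had 29 to 347 genes, 0 to 1 members and a median of -0.51 to -0.067, with the fewest genes without untreated replicate 1. The knockout median was -0.060 to 0.025. The cause of these shifts was not tested. Depth limits the treatment experiment, where 7 members had too few counts to be tested.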

Other observations

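The 2 experiments differed in the level of some interferon-stimulated genes in irradiated wild-type mice, although both used 425 rad and day 3. Cxcl10 had 103, 53.6, 63.6 and 101 CPM in irradiated Il25 WT males of the knockout experiment, and 1.62, 13.7 and 2.23 CPM in irradiated WT females of the treatment experiment. Isg15 had 288, 216, 279 and 377 CPM in those males, and 97.3, 29.4 and 167 CPM in those females. Other genes of the list went the other way. Ifi27l2a ran from 53.8 to 76.7 CPM in the males and from 79.5 to 156 CPM in the females. Oas3 ran from 9.24 to 14.1 and from 24.3 to 42.4 CPM, and Stat2 from 12.8 to 23.1 and from 27.4 to 57.96 CPM. The tables were normalized separately, and the experiments differ in cohort, sex, depth and perhaps in the kind of count, which cannot be told apart, so no test was made.

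Trim30d, a close relative of Trim30a that is not on the list, was noticed after its values were seen. It had 231 counts (55.7 CPM) in Il25 KO replicate 1, and 2, 1 and 1 counts in the other KO libraries, against 4, 0, 2 and 5 counts in the Il25 WT libraries. The same library had 4.82 CPM of Trim30a, beside 11.0, 2.27 and 6.29 CPM in the other KO libraries.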
